A study of Rattus norvegicus with 16 samples.

Results

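The genes of the constitutive proteasome and of the ubiquitin-conjugating (E2) enzymes were examined in PCCl3 cells, a differentiated rat thyroid follicular cell line, after silencing of the transcription factor *Pax8*. Members were taken by gene symbol: every probe of the Agilent rat whole genome array whose RefSeq accession resolved to a rat symbol starting with *Psma*, *Psmb*, *Psmc*, *Psmd* or *Ube2* was taken, and the immunoproteasome genes *Psmb8*, *Psmb9* and *Psmb10* and the mitotic enzyme *Ube2c* were left out. The rule gave 40 genes on 48 probes, of 8899 named genes and 41012 probes on the array. The si*Pax8* cells had received 10 ng/ml of an siRNA directed at *Pax8* and were lysed 48 hours later. Their RNA was hybridized together with that of wild type (wt) cells on 8 arrays and, on 8 others, with that of cells given the same dose of a scrambled siRNA (siScramble cells). All 3 conditions were the same cell line grown in the same TSH-containing medium, and each comparison had 4 biological replicates, each on a dye-swapped pair of arrays. The labels call the untransfected condition wild type, whereas the study's methods list cells treated with lipofectamine. Whether the comparisons share their si*Pax8* samples is not stated in the sources used here. Against wt cells, the effect of transfecting an siRNA and the effect of losing *Pax8* cannot be told apart.

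The proteasome is the protease that degrades proteins tagged with ubiquitin in the cytoplasm and nucleus. Its barrel-shaped core particle is built from rings of alpha subunits, which gate the entry, and rings of beta subunits, some of which cut peptide bonds. The regulatory particle caps the barrel with a ring of ATPases that unfold the substrate and with non-ATPase subunits that bind ubiquitin or remove it. Ubiquitin reaches a substrate through an activating enzyme (E1), a conjugating enzyme (E2) and a ligase (E3), and some E2 enzymes carry a ubiquitin-like protein such as NEDD8 or ISG15 in its place.

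The members comprised 26 proteasome subunits and assembly chaperones, 13 E2 enzymes and *Psmc3ip*, which encodes a partner of recombinases in meiosis and is no proteasome subunit. All 7 alpha subunits of the somatic core were measured, with 6 beta subunits (*Psmb1*, *Psmb2*, *Psmb3*, *Psmb4*, *Psmb6*, *Psmb7*), 5 ATPases (*Psmc1* to *Psmc5*) and 8 *Psmd* genes. *Psmb5*, *Psmd14*, *Ube2m*, *Ube2v1*, *Ube2l3*, *Ube2d1* and *Ube2d2* were not analysed here. Of the 40 genes, 39 were well above background in both channels on all 16 arrays, and *Ube2b* was above background on none. The probes of the proteasome genes were bright, with a mean log2 intensity of 10.00 to 15.83 (median 14.12), against 6.35 to 14.09 (median 11.65) for the E2 enzymes. Processed pseudogenes of these families are frequent in the rat reference, where 91 pseudogene symbols carried these prefixes beside 84 protein-coding ones, so hybridization of a probe to RNA of a close copy cannot be told apart from that of the named gene.

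By the dye labels, negative log2 ratios of si*Pax8* over control stand for less transcript after silencing. *Pax8* itself (probe A_43_P12538, NM_031141) had log2 ratios of -0.84, -0.57, -0.59 and -0.26 in the 4 replicates against wt cells, a mean of -0.56 ± 0.24 (SD, n = 4; adjusted p = 0.000489 by limma). Against siScramble cells it had -0.58, -0.29, -0.12 and -0.01, a mean of -0.25 ± 0.25 (SD, n = 4; adjusted p = 0.147 by limma), which did not pass the threshold of 0.005. Of 9 thyroid markers measured, 8 were lower than in wt cells and 1, *Tg*, was lower than in siScramble cells. Of 10 markers of C cells, fibroblasts, leukocytes and endothelial cells, *Cd68* was higher than in wt cells and none passed against siScramble cells, where 0 were lower or higher by limma and 1 had an unadjusted p under 0.05. *Col3a1*, *Dcn*, *Aif1* and *Pecam1* were above background on no array. In a bulk sample, fewer cells with a transcript and less of it per cell cannot be told apart.

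Promoter windows of RefSeq on GRCr8, each from 250 bases before to 50 bases after the annotated start, are shown for 4 members on which the results turn. These are the alpha subunits *Psma1*, which fell against wt cells, and *Psma3*, which had log2 ratios of -0.02 and -0.01, and the E2 genes *Ube2e3* and *Ube2l6*, which rose against wt cells. They lie at chr1:177887808-177888107 (minus strand, *Psma1*), chr6:95219499-95219798 (plus strand, *Psma3*), chr3:84193996-84194295 (plus strand, *Ube2e3*) and chr3:90279455-90279754 (plus strand, *Ube2l6*). Capitals mark matches, on either strand, to the core of the antioxidant response element (TGACNNNGC), the CCAAT box, the nuclear respiratory factor 1 motif (GCGCATGC), the GC box (GGGCGG) and the core of the interferon response element (GAAANNGAA), and matches that overlap run together.
Psma1: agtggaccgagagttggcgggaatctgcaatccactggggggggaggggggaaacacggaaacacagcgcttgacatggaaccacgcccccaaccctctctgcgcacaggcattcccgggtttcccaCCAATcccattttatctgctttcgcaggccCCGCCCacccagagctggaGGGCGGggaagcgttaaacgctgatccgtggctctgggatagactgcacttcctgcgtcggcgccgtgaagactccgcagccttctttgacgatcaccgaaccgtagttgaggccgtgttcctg
Psma3: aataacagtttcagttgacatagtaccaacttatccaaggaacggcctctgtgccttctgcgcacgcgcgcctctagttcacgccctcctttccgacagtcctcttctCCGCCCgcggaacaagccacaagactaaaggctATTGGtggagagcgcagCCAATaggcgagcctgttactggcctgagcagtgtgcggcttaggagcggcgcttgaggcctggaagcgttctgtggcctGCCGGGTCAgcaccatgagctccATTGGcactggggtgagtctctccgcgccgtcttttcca
Ube2e3: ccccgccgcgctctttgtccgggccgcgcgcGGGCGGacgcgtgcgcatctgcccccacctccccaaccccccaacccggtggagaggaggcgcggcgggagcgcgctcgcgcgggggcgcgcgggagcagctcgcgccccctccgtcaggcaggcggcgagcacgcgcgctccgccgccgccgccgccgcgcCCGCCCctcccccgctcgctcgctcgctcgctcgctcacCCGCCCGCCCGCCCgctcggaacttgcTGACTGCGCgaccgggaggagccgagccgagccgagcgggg
Ube2l6: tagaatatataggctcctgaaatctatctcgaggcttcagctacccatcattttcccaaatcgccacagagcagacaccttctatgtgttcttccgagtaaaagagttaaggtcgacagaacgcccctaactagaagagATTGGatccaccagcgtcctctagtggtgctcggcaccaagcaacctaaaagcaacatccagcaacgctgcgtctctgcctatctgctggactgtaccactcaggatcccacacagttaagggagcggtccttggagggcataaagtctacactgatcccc

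A promoter window was found for 35 members. For the members 1 window was kept per gene symbol, whereas the windows of the whole table were not reduced in this way. The shares below are therefore not of sets built alike. CCAAT was present in 14 of 23 proteasome windows (60.9%), in 4 of 11 E2 windows (36.4%) and in 37.5% of all 33469 windows of the table. The GC box was present in 78.3% of the proteasome windows, 54.5% of the E2 windows and 33.1% of all windows. The antioxidant response core was present in 26.1%, 18.2% and 12.1% of them, respectively, and in the printed set it stood in *Psma3* and *Ube2e3*. The interferon response core was present in 13.0%, 9.09% and 9.71%, and its letters were not in the *Ube2l6* window. The nuclear respiratory factor 1 motif was present in 4.35%, 0% and 2.47%, with *Psma2* as the only proteasome window that held it. These matches describe the letters of the windows and are not binding sites.

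Against wt cells, 10 of the 40 members were lower and 2 were higher in si*Pax8* cells by limma (each probe of the gene at an adjusted p below 0.005), and 28 did not pass. Among all named genes 9.44% were lower and 7.24% higher in that comparison. Among the members that fell were *Psma1*, *Psma2*, *Psma7*, *Psmb3*, *Psmb4*, *Psmd3*, *Psmd9*, *Psmc3ip* and *Ube2j2*. The 10 stood at 82.5% to 88.5% of the wt level, and the members that rose were *Ube2e3* and *Ube2l6*. The changes were small. In simulated data with the spread of this comparison, the threshold recovered 4.48% of log2 changes of 0.25 and 61.2% of those of 0.5. Far fewer probes were changed there than passed here (2879 higher and 3365 lower), which makes the adjusted threshold stricter. These rates therefore need not hold for the data. Each of the 12 members had 1 sign in all 4 replicates and on all 4 slides. They were selected on these same arrays, so the shared sign is no separate support. From Agilent's own processed intensities, none of the 12 passed 0.005 by limma (0 lower, 0 higher). The 11 of them with values reported here kept their signs, at an adjusted p between 0.0074 and 0.171 by limma.

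Against siScramble cells no member passed by limma (0 lower, 0 higher), where 1.25% of all named genes were lower and 1.62% higher. At an unadjusted p below 0.05 by limma, 24 members were lower and 1 was higher, against 13.1% and 9.91% of all named genes. The values leaned to one side: 36 of 40 members had a mean log2 ratio below 0, and 26 were below 0 in all 4 replicates. Over all named genes, 4704 of 8899 were below 0 and 1619 were below 0 in all 4 replicates. At an adjusted p below 0.05 by limma, 9 members were lower (among them *Psmb3*, *Psmb4*, *Psmc2*, *Psmc5*, *Psmd6*, *Psmd12*, *Psmc3ip* and *Ube2j2*) and *Ube2e3* was higher, against 5.64% and 5.51% of all named genes.

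**Figure D1:**
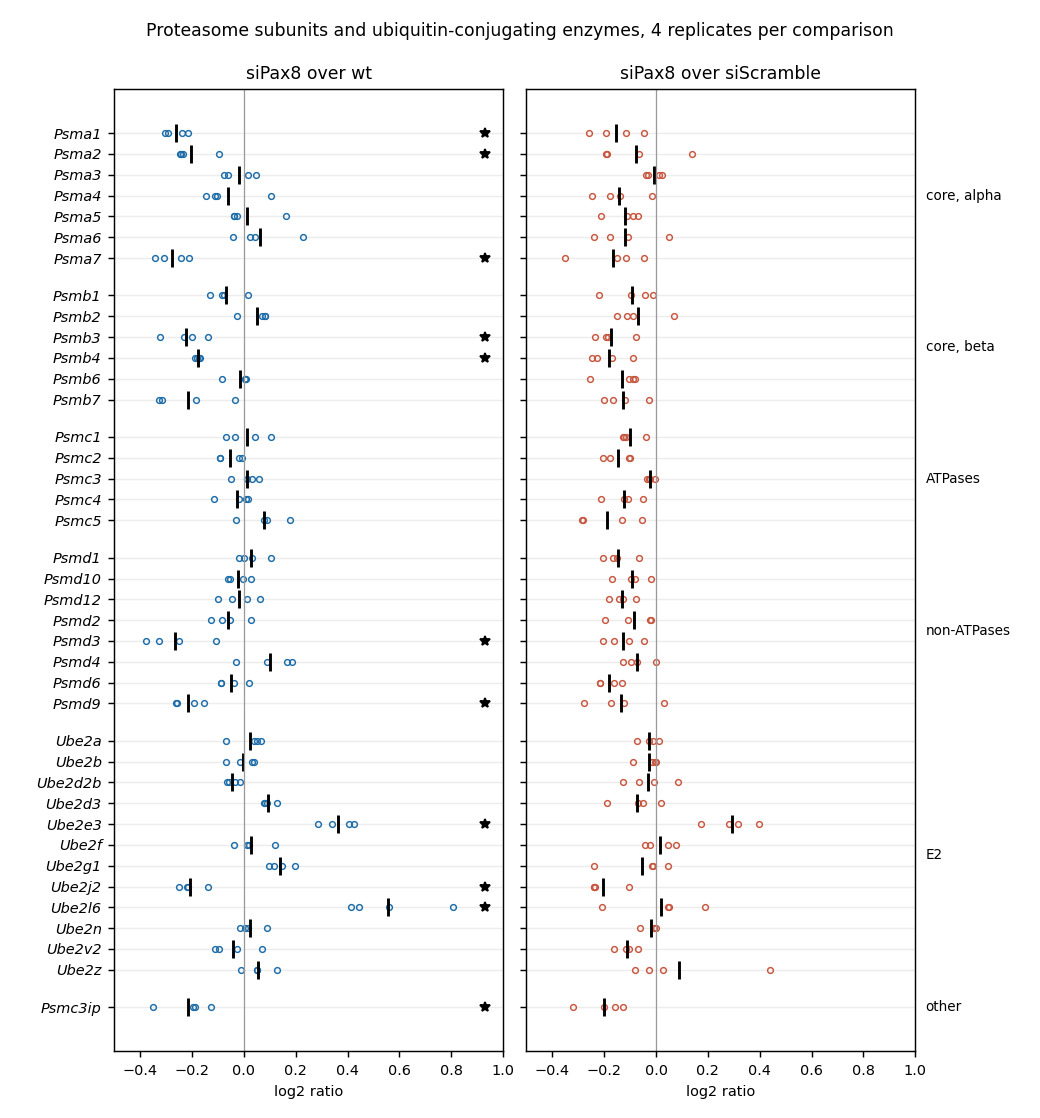
Log2 ratios of si*Pax8* cells over wt cells (left) and over siScramble cells (right) for 39 members, ordered by role. Open circles are the 4 replicates, bars their mean, and stars mark those past the limma threshold of 0.005. On the left the values of a ring spread to both sides of 0, while on the right the means of all 26 proteasome genes lie below 0, between -0.19 and -0.01.

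The 26 proteasome genes had a median log2 ratio of -0.13 against siScramble cells, with replicate medians of -0.10, -0.11, -0.10 and -0.17 (SD 0.03). All 26 means were below 0, 20 of them in all 4 replicates, and the levels ranged from 87.8% to 99.3% of those in siScramble cells. Not all signs held by dye orientation. With si*Pax8* in Cy5 alone *Psma3*, *Psma7*, *Psmc3* and *Psmc4* were above 0 (up to 0.09). In Cy3 alone *Psma4*, *Psma5*, *Psmc1* and *Psmd2* were above 0 (up to 0.14), and *Psmc3* was at 0.0045 with loess alone. Over all named genes the median was -0.0034 and its replicate medians had an SD of 0.002. Against wt cells the same 26 genes had a median of -0.04, with replicate medians of -0.04, -0.06, -0.08 and -0.05 (SD 0.02), and 18 of them were below 0. There 7 of 26 (26.9%) were lower and 0 were higher by limma, beside 9.44% and 7.24% of all named genes. At an unadjusted p below 0.05 by limma 1 had a higher value, beside 14.8% of all named genes. The probes of 24 of the 26 genes had a mean log2 intensity above 12, and the part of brightness in these values was not tested. Among all 1125 named genes that bright, 16.2% were lower and 14.8% higher than in wt cells, and their median was -0.01 against wt and -0.03 against siScramble cells. Of these 1125 genes, 669 were below 0 against siScramble cells, 331 of them in all 4 replicates.

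**Figure D2:**
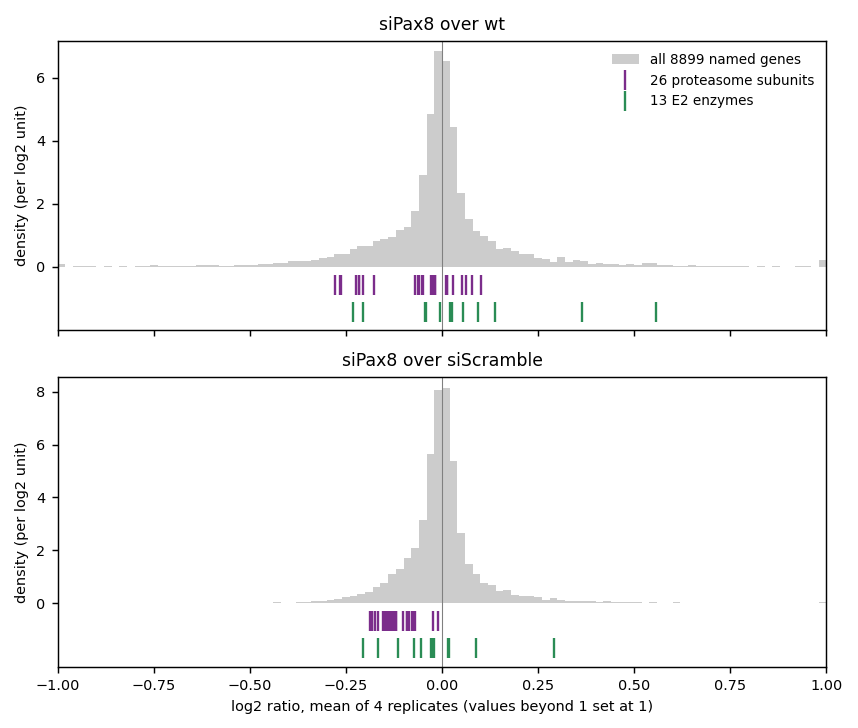
Distribution of the log2 ratio (mean of 4 replicates) over all 8899 named genes (grey), against wt cells above and against siScramble cells below, with a tick for each of 26 proteasome genes and 13 E2 genes. The proteasome ticks span -0.28 to 0.10 above, and below they gather between -0.19 and -0.01 while the E2 ticks span -0.20 to 0.29.

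Among the alpha subunits, 3 of 7 were lower than in wt cells, beside 9.44% of all named genes. The group median was -0.06 against wt and -0.12 against siScramble cells. *Psma7* (A_44_P317539, NM_001008217) had log2 ratios of -0.21, -0.34, -0.31 and -0.24 against wt cells, a mean of -0.28 ± 0.06 (SD, n = 4; adjusted p = 0.00025 by limma). Its values against siScramble cells were -0.15, -0.35, -0.05 and -0.12 (-0.17 ± 0.13, adjusted p = 0.0954 by limma). All 8 values were below 0, but by dye orientation its mean against siScramble cells was -0.35 with si*Pax8* in Cy3 and 0.01 in Cy5.

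*Psma1* (A_42_P743301, NM_017278) had -0.22, -0.24, -0.30 and -0.29 against wt cells (-0.26 ± 0.04, SD, n = 4; adjusted p = 0.000215 by limma). Against siScramble cells its values were -0.19, -0.26, -0.05 and -0.12 (-0.15 ± 0.09; adjusted p = 0.0556 by limma), so that the ranges of the comparisons overlapped. *Psma2* (A_44_P449638, NM_017279) fell less evenly, with -0.10, -0.25, -0.24 and -0.24 against wt cells (-0.21 ± 0.07; adjusted p = 0.00205 by limma). Against siScramble cells its replicates lay on both sides of 0, at -0.19, -0.19, 0.14 and -0.07 (-0.08 ± 0.16; adjusted p = 0.555 by limma). The remaining alpha genes did not pass in either comparison, and their means against wt cells were -0.02 for *Psma3*, -0.06 for *Psma4*, 0.01 for *Psma5* and 0.06 for *Psma6*. Against siScramble cells they were -0.01, -0.14, -0.12 and -0.12, in the same order.

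Among the beta subunits, 2 of 6 were lower than in wt cells, beside 9.44% of all named genes, and neither was a catalytic one. The group median was -0.12 against wt and -0.13 against siScramble cells. *Psmb4* (A_44_P477905, NM_031629) had the narrowest spread between replicates once dye swaps were averaged, with -0.18, -0.17, -0.19 and -0.17 against wt cells (-0.18 ± 0.01, SD, n = 4; adjusted p = 0.00129 by limma). It had -0.23, -0.25, -0.09 and -0.17 against siScramble cells (-0.18 ± 0.07; adjusted p = 0.0184 by limma), the same mean within 0.01. *Psmb3* (A_44_P1025310, NM_017285) had -0.23, -0.32, -0.20 and -0.14 against wt cells (-0.22 ± 0.08; adjusted p = 0.00143 by limma). Its values of -0.24, -0.19, -0.08 and -0.19 against siScramble cells (-0.17 ± 0.07; adjusted p = 0.0203 by limma) lay in much the same range.

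The catalytic subunits measured were *Psmb6*, of caspase-like activity, and *Psmb7*, of trypsin-like activity. *Psmb7* (A_44_P250041, NM_053532) had -0.33, -0.03, -0.32 and -0.19 against wt cells (-0.22 ± 0.14, SD, n = 4; adjusted p = 0.00965 by limma) and -0.20, -0.12, -0.03 and -0.16 against siScramble cells (-0.13 ± 0.08; adjusted p = 0.0723 by limma). Its mean against wt cells matched that of *Psmb3* within 0.01, but its replicates spread more widely, and without replicate 2 it passed the threshold at -0.28 (adjusted p = 0.003 by limma). *Psmb6* (A_44_P107285, NM_057099) had 0.00, -0.08, 0.00 and 0.01 against wt cells (-0.02 ± 0.04; adjusted p = 0.79 by limma). Against siScramble cells it had -0.08, -0.09, -0.10 and -0.26 (-0.13 ± 0.08; adjusted p = 0.073 by limma), all below 0. *Psmb1* and *Psmb2* had means of -0.07 and 0.05 against wt cells and of -0.09 and -0.07 against siScramble cells, and did not pass.

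None of the 5 ATPases, which form the unfolding ring of the regulatory particle, passed in either comparison by limma. At an unadjusted p below 0.05, 0 of them were lower or higher against wt cells, where 19.1% of all named genes were lower and 14.8% higher. Against siScramble cells 4 were lower, beside 13.1% of all named genes. The group median was 0.01 against wt cells and -0.12 against siScramble cells, where all 5 were below 0 in all 4 replicates. *Psmc5* (A_43_P12543, NM_031149) differed most between the comparisons, with 0.18, 0.08, 0.09 and -0.03 against wt cells (0.08 ± 0.09, SD, n = 4; adjusted p = 0.188 by limma) and -0.05, -0.13, -0.28 and -0.29 against siScramble cells (-0.19 ± 0.11; adjusted p = 0.0462 by limma). These values did not overlap, and their difference of 0.27 had an adjusted p of 0.0199 by limma. *Psmc1*, *Psmc2*, *Psmc3* and *Psmc4* had means of 0.01, -0.05, 0.01 and -0.03 against wt cells and of -0.10, -0.15, -0.02 and -0.12 against siScramble cells. Both probes of *Psmc4* gave values between -0.05 and -0.01 against wt cells.

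Of the 8 *Psmd* genes, 2 were lower than in wt cells, beside 9.44% of all named genes. The group medians were -0.04 and -0.13 against wt and siScramble cells. *Psmd3* (A_44_P492635, NM_001008281), a subunit of the lid, had -0.25, -0.11, -0.38 and -0.33 against wt cells (-0.27 ± 0.12, SD, n = 4; adjusted p = 0.00184 by limma). Against siScramble cells it had -0.10, -0.21, -0.16 and -0.04 (-0.13 ± 0.07; adjusted p = 0.061 by limma). *Psmd9* (A_42_P507857, NM_130430), a chaperone in the assembly of the base, had -0.15, -0.26, -0.19 and -0.26 against wt cells (-0.22 ± 0.05; adjusted p = 0.000863 by limma) and 0.03, -0.17, -0.12 and -0.28 against siScramble cells (-0.14 ± 0.13; adjusted p = 0.162 by limma). The other chaperone measured, *Psmd10*, had means of -0.02 and -0.09 and did not pass.

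The ubiquitin receptors of the regulatory particle did not pass in either comparison. *Psmd4* (A_44_P212708, NM_031331) had -0.03, 0.09, 0.19 and 0.16 against wt cells (0.10 ± 0.10, SD, n = 4; adjusted p = 0.101 by limma) and -0.13, -0.07, 0.00 and -0.10 against siScramble cells (-0.07 ± 0.05; adjusted p = 0.216 by limma). *Psmd2* had -0.05, 0.03, -0.09 and -0.13 against wt cells, while its values relative to siScramble cells were -0.02, -0.02, -0.20 and -0.11, for means of -0.06 ± 0.07 and -0.09 ± 0.09. Its probes differed, with 0.01 for A_43_P15715 and -0.13 for A_44_P234636 against wt cells (adjusted p = 0.876 and 0.041 by limma). *Psmd6* (A_44_P1003517, NM_198730), a lid subunit, had the lowest adjusted p of the proteasome genes against siScramble cells, with -0.22, -0.16, -0.13 and -0.22 (-0.18 ± 0.04; adjusted p = 0.00958 by limma). Its mean against siScramble cells was -0.34 with si*Pax8* in Cy3 and -0.02 with it in Cy5. Against wt cells its values of -0.04, 0.02, -0.09 and -0.09 averaged -0.05. *Psmd1* and *Psmd12* had means of 0.03 and -0.02 against wt cells and of -0.15 and -0.13 against siScramble cells.

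The E2 enzymes had values on both sides of 0. Of 13 genes, 2 rose and 2 fell against wt cells (15.4% each), beside 7.24% and 9.44% of all named genes. The median was 0.02 against wt and -0.03 against siScramble cells. *Ube2e3* (A_42_P585079, NM_001047857), a ubiquitin E2, was raised against wt cells with 0.34, 0.29, 0.42 and 0.41 (0.36 ± 0.06, SD, n = 4; adjusted p = 5.57e-05 by limma), 129% of the wt level. Against siScramble cells it had 0.17, 0.28, 0.32 and 0.40 (0.29 ± 0.09; adjusted p = 0.00573 by limma), just short of the threshold, and it was the only member with an unadjusted p below 0.05 and a higher level there. All 8 values were above 0 and the comparisons overlapped, with a difference of 0.07 (adjusted p = 0.506 by limma). With both comparisons in 1 fit it passed against siScramble cells as well (adjusted p = 0.00051 by limma).

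*Ube2l6* (A_44_P1007008, NM_001024755), the E2 that conjugates the interferon-induced modifier ISG15, had 0.81, 0.56, 0.45 and 0.41 against wt cells (0.56 ± 0.18, SD, n = 4; adjusted p = 0.000142 by limma), 147% of the wt level. Against siScramble cells it had 0.19, 0.05, 0.05 and -0.21 (0.02 ± 0.17; adjusted p = 0.924 by limma), and no value of the one comparison reached into the range of the other. The difference of 0.54 had an adjusted p of 0.00553 by limma, just short of the threshold. No member passed in this test of the difference (0 higher, 0 lower by limma), where 1.71% of all named genes were higher and 2.74% lower. At an adjusted p below 0.05 by limma 2 members, *Psmc5* and *Ube2l6*, were higher and 0 lower, beside 5.19% and 6.41% of all named genes.

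Interferon markers were higher than in wt cells as well, and their part in the rise of *Ube2l6* was not tested. Of 11 markers measured, 9 were higher than in wt cells, with a median of 1.13 over the 11 and a mean of up to 2.93, for *Oas1a*. *Ifit1* was above background on no array, so no ratio is given for it. Against siScramble cells 1 of 11 (*Irf7*, 0.74) passed, and the median was 0.33, while *Ube2l6* had a mean of 0.02. The marker median was 1.43, 1.17, 0.95 and 1.01 in replicates 1 to 4 of the wt comparison, and 0.66, 0.40, 0.14 and 0.17 in those of the siScramble comparison. Replicate 1 had the highest value of *Ube2l6* as well in each comparison.

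Among the E2 enzymes, *Ube2j2*, which is anchored in the membrane of the endoplasmic reticulum, fell against wt cells. It (A_42_P605386, NM_001007655) had -0.22, -0.14, -0.22 and -0.25 against wt cells (-0.21 ± 0.05, SD, n = 4; adjusted p = 0.001 by limma) and -0.11, -0.24, -0.23 and -0.24 against siScramble cells (-0.20 ± 0.07; adjusted p = 0.0108 by limma). The comparisons gave nearly the same mean, and in a single fit of both it passed against siScramble cells too (adjusted p = 0.00152 by limma).

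The E2 of lysine-63 chains, *Ube2n*, and its catalytically inactive partner *Ube2v2* did not pass. *Ube2n* had 0.01, -0.02, 0.09 and 0.00 against wt cells, and -0.01, 0.00, -0.01 and -0.06 relative to siScramble cells. Its probes gave 0.10 and -0.05 against wt cells (adjusted p = 0.0533 and 0.381 by limma). *Ube2v2* had 0.07, -0.11, -0.03 and -0.10 against wt cells, and -0.07, -0.12, -0.10 and -0.16 relative to siScramble cells, with means of -0.04 ± 0.08 and -0.11 ± 0.04 (SD, n = 4). The probes of *Ube2d3*, a ubiquitin E2 of broad use, disagreed about the threshold. A_44_P242252 was higher than in wt cells at 0.18 ± 0.04 (SD, n = 4; adjusted p = 0.00228 by limma), while A_43_P12545 had 0.01 (adjusted p = 0.877 by limma), so the gene, with replicate values of 0.09, 0.08, 0.08 and 0.13, was not counted as changed. Against siScramble cells *Ube2d3* had -0.19, -0.07, -0.05 and 0.02.

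Of the remaining E2 genes, *Ube2g1* had 0.10, 0.15, 0.20 and 0.12 against wt cells (0.14 ± 0.04, SD, n = 4; adjusted p = 0.00801 by limma) and -0.06 ± 0.13 against siScramble cells. *Ube2a*, *Ube2f*, which carries NEDD8, *Ube2z* and *Ube2d2b* had means of 0.02, 0.03, 0.05 and -0.04 against wt cells and of -0.03, 0.02, 0.09 and -0.03 against siScramble cells. The mean of *Ube2z* against siScramble cells rested on replicate 4, at 0.44, with the others between -0.08 and 0.03. *Ube2b* was not well above background in any condition, so no ratio is given. *Psmc3ip* (A_43_P13277, NM_134458) had -0.19, -0.35, -0.13 and -0.19 against wt cells (-0.22 ± 0.10; adjusted p = 0.00302 by limma) and -0.16, -0.20, -0.13 and -0.32 against siScramble cells (-0.20 ± 0.09; adjusted p = 0.019 by limma), a similar reduction in both.

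**Figure D3:**
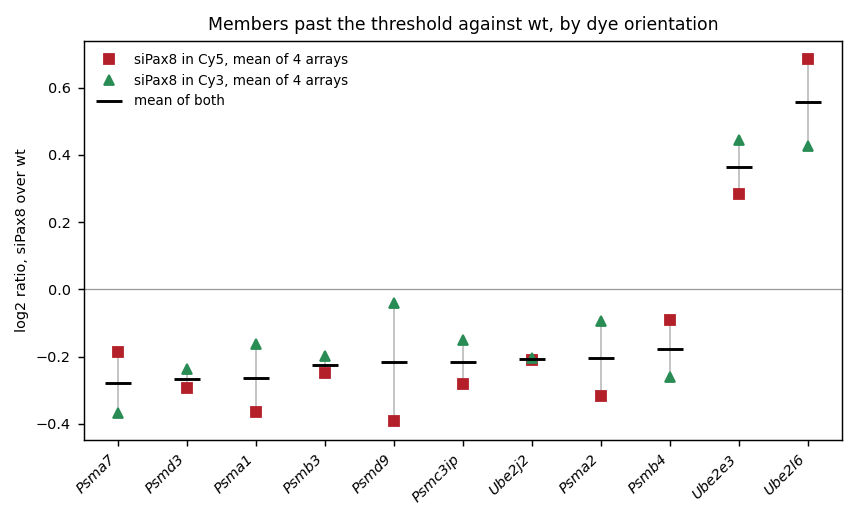
Log2 ratio of si*Pax8* over wt cells for 11 members past the threshold, as the mean of 4 arrays with si*Pax8* RNA in Cy5 (squares), of 4 arrays with it in Cy3 (triangles) and of both (bars). *Ube2j2*, *Psmb3* and *Psmd3* gave similar values in both orientations, whereas *Psmd9* (-0.39 and -0.04) did not.

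The spread between dye orientations was as large as many of these changes. Of the 12 members past the threshold against wt cells, 11 had 1 sign in both orientations. With si*Pax8* in Cy5 alone 10 members were lower and 4 higher by limma, and in Cy3 alone 4 were lower and 1 was higher. How many of all named genes passed in each orientation was not counted, so this imbalance cannot be ascribed to the members. Opposite signs past the threshold appeared for *Psmd6* (0.19 and -0.29) and for *Ube2d2b* (0.23 and -0.32), whose mean over both orientations was close to 0.

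Leaving out 1 replicate ended part of the calls against wt cells. The number of members that were lower by limma was 10 without replicate 1, 6 without replicate 2, 2 without replicate 3 and 3 without replicate 4, while *Psma1*, *Psma7*, *Ube2e3* and *Ube2l6* passed in each case. The shares of all named genes in these fits of 3 replicates were not counted, so the loss of calls cannot be read as particular to the members. The means of the genes that lost their call changed little: without replicate 3, *Psma2*, *Psmb3*, *Psmd9* and *Psmc3ip* stood at -0.19, -0.23, -0.22 and -0.25, against -0.21, -0.22, -0.22 and -0.22 with all 4 replicates. With a term for the slide 2 members remained lower, *Psma7* and *Ube2j2*, at means unchanged by the term, and 2 were higher. Within the 4 slides *Psma7* lay between -0.36 and -0.22 and *Ube2j2* between -0.27 and -0.15.

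Of 43 other genes of the pathway, 26 were measured. Against wt cells 2 were higher (7.69%, beside 7.24% of all named genes) and 0 lower (9.44% of all) by limma, with a median of -0.01. Where the unadjusted p by limma was below 0.05, 9 had higher and 4 had lower values, beside 14.8% and 19.1% of all named genes. Against siScramble cells 0 were higher and 0 lower by limma, beside 1.62% and 1.25% of all named genes, and the median was -0.04. With an unadjusted p below 0.05 by limma there, 3 were higher and 2 lower, beside 9.91% and 13.1% of all named genes. The genes that rose were *Psmb10* and *Nfe2l2*. *Ube2c*, *Nfe2l1* and *Pomp* were not analysed here.

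The inducible subunits that replace the catalytic ones in the immunoproteasome did not move together. *Psmb10* (A_44_P152144, NM_001025637), the counterpart of *Psmb7*, had 0.46, 0.23, 0.22 and 0.17 against wt cells (0.27 ± 0.13, SD, n = 4; adjusted p = 0.00226 by limma) and 0.22, 0.00, -0.12 and -0.22 against siScramble cells (-0.03 ± 0.19; adjusted p = 0.893 by limma). *Psmb8*, the counterpart of *Psmb5*, had -0.06, -0.06, -0.23 and -0.20 against wt cells (-0.14 ± 0.09; adjusted p = 0.0259 by limma). *Psmb9*, the counterpart of *Psmb6*, had 0.16, -0.09, -0.13 and -0.14 against wt cells (-0.05 ± 0.14; adjusted p = 0.591 by limma). Against siScramble cells *Psmb8* and *Psmb9* had means of -0.06 and 0.04, so that *Psmb10* alone of the 3 passed, and only against wt cells. Without replicate 2, 3 or 4, *Psmb10* kept its level against wt cells (0.28, 0.29 and 0.31) but no longer passed (adjusted p from 0.00506 to 0.0121 by limma).

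*Psme1* and *Psme2*, the subunits of the interferon-inducible activator of the core particle, had means of 0.13 ± 0.11 and 0.23 ± 0.13 against wt cells (SD, n = 4; adjusted p = 0.0539 and 0.00538 by limma) and of 0.09 ± 0.07 and 0.14 ± 0.06 against siScramble cells. Neither passed, and *Psme2* was above 0 in all 8 values. *Nfe2l2* (A_43_P14931, NM_031789), which encodes the transcription factor NRF2 that acts through antioxidant response elements, had 0.86, 0.61, 0.56 and 0.60 against wt cells (0.66 ± 0.13; adjusted p = 1.49e-05 by limma). Against siScramble cells it had 0.31, 0.21, 0.07 and 0.11 (0.18 ± 0.11; adjusted p = 0.0492 by limma). Its values did not overlap between the comparisons, and the difference of 0.48 passed (adjusted p = 0.00177 by limma). It no longer passed with Agilent's processed signals (0.48, adjusted p = 0.0212 by limma) or without replicate 2, 3 or 4 (0.51, 0.48 and 0.48, adjusted p from 0.0146 to 0.0155 by limma).

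**Figure D4:**
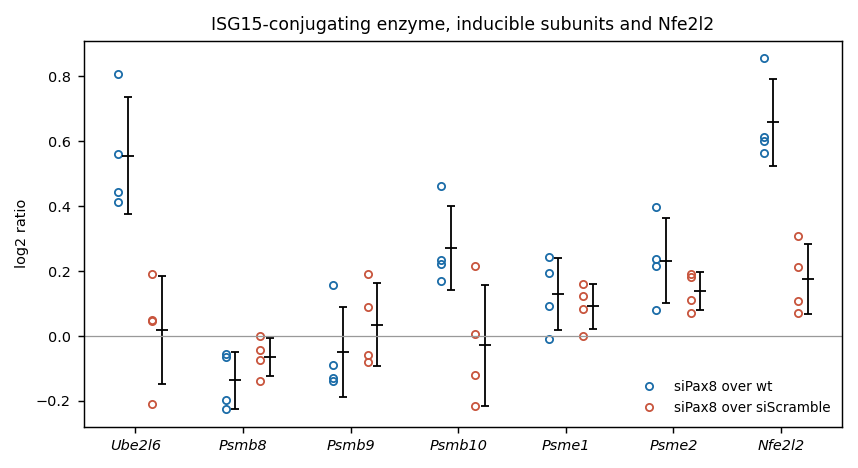
Log2 ratios of *Ube2l6*, the inducible proteasome genes and *Nfe2l2* in si*Pax8* cells over wt (blue) and over siScramble cells (red). Circles are the 4 replicates, bars the mean and SD. *Ube2l6* and *Nfe2l2* are separated between the comparisons, at 0.56 and 0.02 and at 0.66 and 0.18, while *Psmb8* and *Psmb9* stay within 0.23 of 0 in each replicate.

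None of the 4 ubiquitin genes and 5 activating enzymes measured passed the threshold by limma in either comparison. At an unadjusted p below 0.05 by limma, 2 of the ubiquitin genes were higher and 1 activating enzyme was lower against wt cells. There 14.8% of all named genes were higher and 19.1% lower. Against siScramble cells 1 activating enzyme was lower, beside 13.1% of all named genes. *Ubb* and *Rps27a* had means of 0.14 and -0.02 against wt cells. The 5 activating enzymes measured had a median of -0.09 against wt and -0.08 against siScramble cells, with the ubiquitin E1 *Uba1* at -0.16 ± 0.21 and -0.04 ± 0.14. The 7 proliferation markers measured had medians of -0.31 against wt and -0.26 against siScramble cells. Of these, 6 were lower than in wt cells and 2 (*Ccnb1* and *Ccnb2*) lower than in siScramble cells. Their part in the lower values of the proteasome genes was not tested.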

How the data were processed

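The authors deposited 1 scanner file per array from Feature Extraction 10.1.1.1, with unnormalized fluorescence intensities (mean spot and median local background intensity of Cy3 and Cy5) and spot flags, and a single table of normalized log2 ratios of all arrays. The deposited table correlated with the ratios computed here from 0.993 to 0.999 after its sign was turned, which makes it control over si*Pax8*; its column medians lay between -0.000112 and 0.0068, and its base and centring were read from these values. The submitters' processing notes name limma.

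R 4.3.3, limma 3.58.1 and, for support, statmod 1.5.0 and the data.table package (1.17.8) were used. Intensities were corrected by normexp (offset 50), normalized by loess within arrays (control and outlier spots, 171 to 308 per array, at weight 0) and by quantiles between channels. Of 45018 spots, 1639 were controls, 51% to 59.5% were well above background in a channel, and at most 2 were saturated. The number of arrays limits precision. Spots of a probe and the dye swaps of a replicate were averaged to 4 values, fitted per comparison with lmFit and eBayes, with Benjamini-Hochberg adjustment across all 41012 probes and the study's threshold of 0.005. A gene value is the mean over its probes. The difference between the comparisons (against wt minus against siScramble) was fitted to 8 values as separate groups. RefSeq accessions named 10768 probes through the reference of GRCr8.

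Same-numbered arrays of opposite dye orientation, paired by the numbers in the labels, deviated together (correlations of 0.118 to 0.466 against wt and 0.328 to 0.511 against siScramble cells over probes of mean log2 intensity above 8). The exception to the best match by number was replicate 2 of the wt comparison, at 0.118 with its own swap and 0.203 with that of a different replicate. P values measure the spread between these 4 replicates, which the study, not the sample titles, calls biological.

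The members and lists were chosen with earlier results of these data known. Replicate values are given for the called members with the largest changes (up to 8 per direction), for catalytic, receptor and selected E2 genes whatever their values, for the immunoproteasome genes and for any called pathway gene; *Psma2* and *Psmb4*, called but outside these, *Psmc5*, *Psmd6* and *Ube2g1* were added after their values were seen. The fits were tested on simulated data. The limit of 12 for bright probes was set after seeing the data. The alternatives are given in the closing section. The values of 1 member and of 2 other pathway genes are not reported here, and they are kept in the counts and medians.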

Additional observations from a re-analysis of the deposited data

Results flagged for a closer look

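Of 106 sets of 4 replicate values (members, related genes and group medians in each comparison), 11 had a replicate whose gap to the others, over the whole range, exceeded Dixon's critical value for 4 values, where chance gives about 1 in 20. Replicate 1 against wt cells stood apart for *Psma2* (-0.10, others from -0.25 to -0.24), *Psma4* (0.11, others from -0.15 to -0.10), *Psma5* (0.16, others from -0.04 to -0.03), *Psmb9* (0.16, others from -0.14 to -0.09) and *Nfe2l2* (0.86, others from 0.56 to 0.61), each time as the highest value. Replicate 2 against wt cells stood apart as the lowest for *Psmb2* (-0.028, others from 0.07 to 0.08) and *Psmb6* (-0.083, others from 0.00 to 0.01). Against siScramble cells the outlying values were those of *Psmb6* in replicate 4 (-0.26, others from -0.10 to -0.08), *Psmc1* in replicate 2 (-0.039, others from -0.13 to -0.11), *Ube2j2* in replicate 1 (-0.11, others from -0.24 to -0.23) and *Ube2n* in replicate 4 (-0.063, others from -0.01 to 0.00).

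*Nfe2l2* differed between the comparisons by 0.48, past the threshold in the test of the difference (adjusted p = 0.00177 by limma). That call was lost with Agilent's processed signals (adjusted p = 0.0212) and without replicate 2, 3 or 4 (0.0155, 0.0146 and 0.0148 by limma), at differences of 0.48 to 0.51.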

How the results depend on the processing

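The members called lower and higher against wt cells numbered 10 and 2. They were 0 and 0 with Agilent's processed signals, 2 lower with the slide as a term, 4 lower and 1 higher with si*Pax8* in Cy3 alone, and 4 higher with it in Cy5 alone. Leaving out 1 replicate gave 2 to 10 lower and 2 to 2 higher. Against siScramble cells, 0 and 0 became 2 lower and 1 higher with the replicate block, 9 lower and 1 higher with si*Pax8* in Cy3 alone, 3 lower and 1 higher with both comparisons in 1 fit, and 9 lower and 1 higher at an adjusted p below 0.05. For the difference, 0 higher became 2 with the replicate block (*Psmc5* and *Ube2l6*), which pairs same-numbered replicates of the comparisons, 1 with loess alone, 2 at an adjusted p below 0.05, and 0 to 1 when 1 replicate was left out. Those numbers need not pair the samples: the correlations of same-numbered replicates were 0.394, 0.169, 0.044 and 0.562, and replicates 2 and 3 correlated more with another number (0.395). With the replicate block over the 8 arrays of a comparison 9 members were lower and 3 higher against wt cells, where *Psmd9* was among those that lost a call and *Psmb7* and *Ube2g1* gained one. The sign turned with si*Pax8* in Cy5 alone for *Psmd6* (0.19) and *Ube2d2b* (0.23). The cause of these shifts was not tested. Except at an adjusted p below 0.05, the shares of all named genes were not counted under these alternatives. The median of the proteasome genes stayed between -0.05 and -0.02 against wt and between -0.14 and -0.10 against siScramble cells under all alternatives run. Naming by a gene name column was not run, since the scanner files read here hold none. In simulated data with far fewer changed probes than here, most log2 changes of 0.25 were missed (4.48% recovered against wt and 8.96% against siScramble cells).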
